A study of Mus musculus with 24 samples.

Results

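Skeletal muscle genes were followed through the fat depots of mice lacking Prxl2a, as a set of 35 genes out of 19015 in the deposited table. The set was taken by gene symbol. It holds 14 genes typical of fast fibres, 4 of slow fibres, 9 sarcomere genes that both fibre types use, 4 genes of excitation-contraction coupling and 4 genes of muscle metabolism. All 35 were found in the table.

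The fat libraries came from female mice aged 12 weeks, perfused with PBS before dissection. Inguinal adipose tissue (IAT), a subcutaneous white fat depot, gave 3 wildtype (WT) and 3 Prxl2a knockout (KO) libraries. Dorsal brown adipose tissue (BAT), a heat-producing fat, also gave 3 WT and 3 KO libraries. Brain and liver of the same genotypes gave 12 further libraries, which are used below only as a reference for levels outside fat. Each library is a bulk sample of a whole tissue piece, so fewer cells of a type and less RNA per cell cannot be told apart. Nothing in the labels ties a replicate number to 1 mouse across tissues, and the p-values measure the spread between these samples.

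A skeletal muscle fibre contracts when calcium, released through the ryanodine receptor, binds troponin on the thin filament and lets myosin heads pull on actin. Fast and slow fibres build this machinery from different members of the same families. Fast fibres use the heavy chains Myh4, Myh1 and Myh2 with fast troponins T, I and C (Tnnt3, Tnni2, Tnnc2), while slow fibres use Myh7 with slow troponins (Tnnt1, Tnni1, Tnnc1). Slow troponin C and Myh7 also serve the heart. Brown adipocytes and skeletal muscle share part of their embryonic lineage, and some genes first described in muscle, such as myoglobin (Mb), are also known from brown fat.

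As a check of the genotype labels, Prxl2a stood at 554, 382 and 349.5 TPM in the IAT WT libraries and at 11.3, 24.4 and 18.6 TPM in the IAT KO libraries. In BAT it stood at 494, 513 and 525 TPM in WT and at 21.2, 24.2 and 17.97 TPM in KO. TPM is a transcript abundance scaled to the library and corrected for transcript length, so that levels of different genes can be compared. Total expected counts ran from 16147508 to 17323714 in IAT and from 12327459 to 12948149 in BAT. The depot labels were checked on marker genes. The adipocyte hormone Adipoq was at 2040 to 5376 TPM in all 12 fat libraries, and the heat-producing uncoupling protein Ucp1 was at 2710 to 5124 TPM in BAT and at 0 to 1.19 TPM in IAT.

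One library stood apart before any comparison was made. IAT KO replicate 3 lay close to the mean of KO replicates 1 and 2, gene by gene: the best mixture took 49.6% of replicate 1 and left a chi-square of 2.301 per degree of freedom over 14310 genes. The same measure was 11.5 to 418 for each of the other 23 libraries against the other replicates of its group. Of 947 genes at least 4-fold apart between KO replicates 1 and 2, replicate 3 lay between them for all 947. For the 35 genes, counts of calls by the main test (edgeR) that use IAT KO are therefore also given without replicate 3. Counts from the other tools, from fits that leave out WT libraries and of genes whose KO and WT libraries did not overlap include replicate 3. The spread of the IAT KO group is that of fewer than 3 distinct profiles.

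Muscle transcripts were concentrated in a few libraries of both depots. The 35 genes summed to 2278, 7958 and 132 TPM in the IAT WT libraries and to 135, 199 and 168 TPM in IAT KO. In BAT the sums were 3653, 205 and 239.9 TPM in WT and 200.3, 331 and 358 TPM in KO. IAT WT replicates 1 and 2 and BAT WT replicate 1 stood far above the rest, and WT and KO sums overlapped in both depots. In BAT WT replicate 1 all 35 genes reached 1 TPM, in IAT WT replicate 2 it was 34 and in IAT WT replicate 1 it was 32, while the other 9 fat libraries had 9 to 20 such genes.

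**Figure D1:**
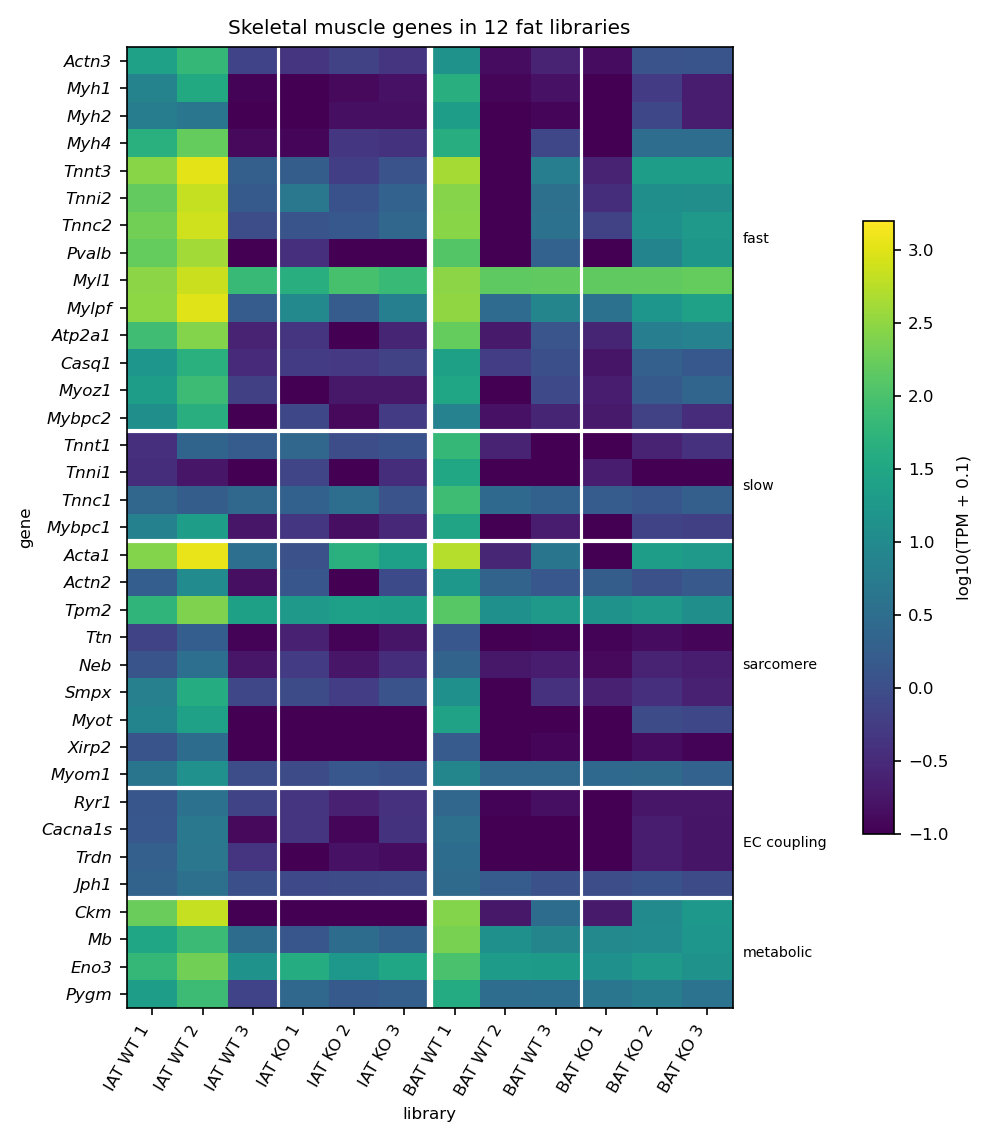
Level of each of the 35 genes (vertical axis, grouped by role) in the 12 fat libraries (horizontal axis), coloured by log10(TPM + 0.1), with white lines between groups. IAT WT 1, IAT WT 2 and BAT WT 1 are bright in nearly every line of the map, slow troponins are bright in BAT WT 1 only, and Myl1 is bright in all 12 libraries.

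The fast troponins differed widely between libraries. Tnnt3, the fast form of the troponin that anchors the complex to tropomyosin, was at 285, 1084 and 1.74 TPM in the IAT WT libraries and at 1.61, 0.50 and 1.07 TPM in IAT KO. In BAT, Tnnt3 was at 426, 0 and 6.07 TPM in WT and at 0.16, 21.9 and 21.6 TPM in KO. Every IAT KO library lay below every IAT WT library for this gene, whereas in BAT the WT libraries included both the highest and the lowest level. In IAT the order of WT replicate 3 and KO replicate 1 rested on the scaling of the libraries, since both had 16 counts. Tnni2, the fast inhibitory troponin, and Tnnc2, the fast calcium sensor, followed the same order of libraries at the top, reaching 680 and 796 TPM in IAT WT replicate 2. Both were listed at 0 in BAT WT replicate 2. Several other fast genes also peaked in that IAT library: the calcium store protein Casq1 at 46.1 TPM, the Z-disc proteins Myoz1 and Actn3 at 74.9 and 62.4 TPM, and Mybpc2, fast myosin binding protein C, at 44.1 TPM. Myh1 and Myh2 peaked in BAT WT replicate 1 instead, at 44.9 and 22.7 TPM.

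Ckm, the muscle creatine kinase that buffers ATP, was present in some fat libraries and missing from others. It was at 174, 672 and 0 TPM in IAT WT, and at 0 in each IAT KO library. In BAT it was at 265, 0.09 and 3.01 TPM in WT and at 0.10, 10.0 and 17.5 TPM in KO. In IAT WT replicate 3 and all IAT KO libraries no count was assigned to Ckm, and in BAT the KO levels of replicates 2 and 3 were above WT replicates 2 and 3. Brain and liver libraries held at most 0.13 TPM.

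Acta1, the skeletal alpha-actin of the thin filament, was at 267, 1171 and 3.32 TPM in IAT WT and at 0.99, 46.0 and 23.7 TPM in IAT KO. Here IAT KO replicate 2 held 613 counts while Ckm had none and Tnnt3 had 4. In BAT, Acta1 was at 548, 0.18 and 4.20 TPM in WT and at 0, 22.3 and 18.1 TPM in KO. Acta1 overlaps the annotated gene Gm20388 on the other strand, and reads of both could not be separated without strand information. Brain held 10.3 to 14.3 TPM of Acta1.

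The fast calcium pump Atp2a1, which returns calcium to the sarcoplasmic reticulum, was at 81.4, 267 and 0.16 TPM in IAT WT and at 0.35, 0 and 0.17 TPM in IAT KO. In BAT it was at 163, 0.10 and 1.18 TPM in WT and at 0.17, 6.09 and 7.11 TPM in KO. Groups overlapped in both depots. Parvalbumin (Pvalb), a calcium buffer of fast fibres, was at 162, 411 and 0 TPM in IAT WT and 119, 0 and 2.02 TPM in BAT WT, and it was also at 72.1 to 211 TPM in brain, where it marks a class of inhibitory neurons.

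Excitation-contraction genes were low in absolute level even where the sarcomere genes were high. Ryr1, the calcium release channel, was at 1.24, 3.69 and 0.63 TPM in IAT WT, at 0.35, 0.14 and 0.29 TPM in IAT KO and at 2.32 TPM in BAT WT replicate 1, with 0 to 0.08 TPM in the other 5 BAT libraries. Cacna1s, its voltage sensor, reached 4.62 TPM, and Trdn, a junction protein of the same complex, reached 4.56 TPM, both in IAT WT replicate 2. Jph1, which holds the junction membranes together, stayed between 0.75 and 3.39 TPM in all fat libraries and was at 14.9 to 20.9 TPM in brain. Of the giant sarcomere proteins, titin (Ttn) reached 1.72 TPM and nebulin (Neb) 3.27 TPM, while the small sarcomere protein Smpx reached 39.0 TPM. Xirp2 and Myot were at 0 in IAT WT replicate 3 and in all 3 IAT KO libraries, and at 2.99 and 24.9 TPM in IAT WT replicate 2.

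The balance of fast and slow genes set 1 library apart. Slow troponins were low in the IAT libraries rich in muscle transcripts and in BAT KO replicates 2 and 3, and were high in BAT WT replicate 1. Tnnt1, the slow troponin T, was at 0.28, 2.17 and 1.60 TPM in IAT WT, at 2.34, 0.89 and 1.06 TPM in IAT KO, at 61.7, 0.15 and 0 TPM in BAT WT and at 0, 0.15 and 0.30 TPM in BAT KO. In IAT this gene did not follow Tnnt3, since the library with the most Tnnt1 was KO replicate 1. Tnni1, the slow inhibitory troponin, was at 33.2 TPM in BAT WT replicate 1 and at 0 to 0.65 TPM in the other 11 fat libraries. Tnnc1, the slow calcium sensor, was at 79.2 TPM in BAT WT replicate 1 and at 1.11 to 3.17 TPM in the other 11, while brain held 11.4 to 51.1 TPM. Mybpc1, the slow form of myosin binding protein C, did not share this pattern: it was at 7.01 and 21.8 TPM in IAT WT replicates 1 and 2 and at 28.3 TPM in BAT WT replicate 1.

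Summed over the troponins, the fast genes made up 99.6% of troponin TPM in IAT WT replicate 1 and 99.8% in replicate 2. The count shares behind these values were 3672 fast against 14 slow counts (95% exact Clopper-Pearson interval 99.4% to 99.8%) and 16238 against 29 (99.7% to 99.9%). In BAT WT replicate 1 the fast share was 84.9% of TPM, from 4963 fast and 960 slow counts, a count share of 83.8% (82.8% to 84.7%). In BAT KO the shares were 97.1% in replicate 2 (254 against 6 counts, interval 95.0% to 99.1%) and 96.2% in replicate 3 (275 against 9 counts, 94.1% to 98.5%). BAT WT replicate 3 had 66 fast and 7 slow counts, a count share of 90.4% (81.2% to 96.1%). All 7 slow counts there were Tnnc1, which had counts in every fat library, while Tnnt1 and Tnni1 had 0. The interval of BAT WT replicate 1 lay within that of BAT WT replicate 3 and did not reach those of the IAT WT libraries or of BAT KO replicates 2 and 3. Intervals cover counting error only, and each describes 1 library.

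The myosin heavy chains gave the same contrast from other genes. Myh4, the chain of the fastest fibres, made up 77.8% of the TPM of the 4 heavy chains in IAT WT replicate 1 and 79.8% in replicate 2. In BAT WT replicate 1 it made up 31.7%, beside 34.5% Myh1, 17.4% Myh2 and 16.4% Myh7. Myh7, the slow chain, made up 0.101% in IAT WT replicate 1 and was listed at 0 in replicate 2. BAT KO replicates 2 and 3, with 238 and 189 heavy chain counts, held 72.4% and 93.1% Myh4, with Myh7 listed at 0. BAT WT replicate 3, with 41 heavy chain counts, held 89.5% Myh4, also with Myh7 listed at 0. Myh1, Myh2 and Myh4 are neighbouring paralogues on chromosome 11, and how the counting shared reads among these 3 was not tested, so their split is given as uncertain.

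**Figure D2:**
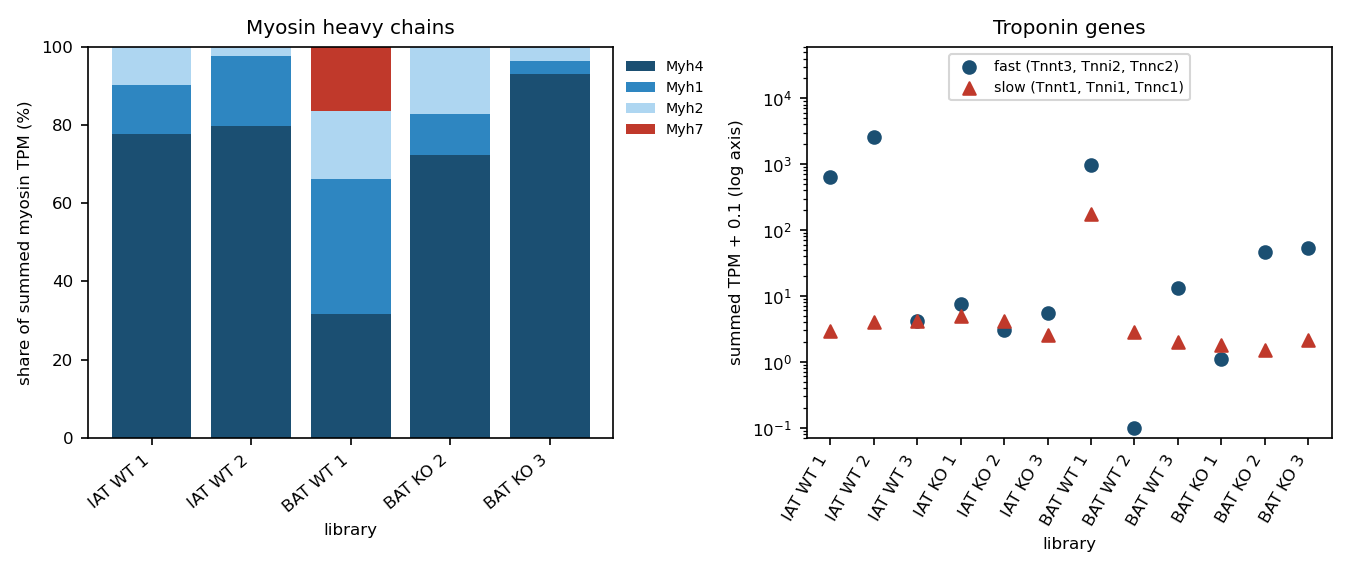
Left, share of each myosin heavy chain gene in their summed TPM (%) in the 5 fat libraries with at least 100 fast and slow troponin counts. Right, summed TPM of fast (circles) and slow (triangles) troponin genes in the 12 fat libraries on a log axis with 0.1 added. Myh7 is visible in BAT WT 1 only, at 16.4%, and slow troponins lie between 1.39 and 4.91 TPM in every library but BAT WT 1, where they reach 174 TPM.

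Of 10 further slow fibre genes outside the set, some were highest in BAT WT replicate 1 and others were not. Myl2, the regulatory light chain of slow and cardiac muscle, was at 203 TPM there and at 0 to 0.87 TPM in the other fat libraries. Myl3, the matching essential light chain, was at 52.5 TPM against 0.61 to 2.21 TPM, and Myoz2, a slow Z-disc protein, at 22.4 TPM against 0 to 3.2 TPM. Sarcolipin (Sln), a regulator of the calcium pump, was higher in IAT WT replicate 2 (20.8 TPM) than in BAT WT replicate 1 (10.0 TPM). The slow tropomyosin Tpm3, which many cell types also use, was highest in IAT KO replicate 1 at 302 TPM, against 108 TPM in BAT WT replicate 1. Myl6b was at 8.69 to 16.9 TPM in all fat libraries, and Pln, a brake on the calcium pump, was lowest in BAT WT replicate 1 at 0.10 TPM.

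Because Myl2, Myl3, Tnnc1 and Myh7 also serve the heart, cardiac genes were read beside them. The atrial light chain Myl7 and the natriuretic peptide Nppb were at 0 in all 12 fat libraries, the heart myosin Myh6 at no more than 0.08 TPM and the natriuretic peptide Nppa at no more than 0.19 TPM. Cardiac troponin I (Tnni3) was at 0 and cardiac troponin T (Tnnt2) at 0.12 TPM in BAT WT replicate 1. In IAT, Tnni3 was at 3.04 to 14.5 TPM, with its highest level in KO replicate 1.

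Most regulators of the muscle lineage had few counts, with Mef2c and Mstn as exceptions. Mef2c, a transcription factor that lymphocytes and other cells also use, was at 4.04 to 22.8 TPM in IAT, highest in KO replicate 1, and at 2.61 to 5.04 TPM in BAT. Myf6, a transcription factor that mature fibres keep, was at 2.49 and 6.70 TPM in IAT WT replicates 1 and 2, at 3.51 TPM in BAT WT replicate 1 and at 0 to 0.11 TPM in the other 9 fat libraries. Myod1 and Myog, which drive muscle differentiation, stayed at or under 0.94 TPM in all 12, with counts of 2 to 13 in the 3 muscle-rich libraries. Pax7, the marker of satellite cells, had at most 3 counts in those libraries. Myostatin (Mstn), which limits muscle growth, was uneven: it was at 22.0 TPM in IAT WT replicate 2 (626 counts) and at 0.66 TPM in IAT WT replicate 1 (17 counts) and 0.31 TPM in BAT WT replicate 1 (7 counts).

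Most muscle genes kept similar proportions in IAT WT replicates 1 and 2. For the 32 genes with at least 20 counts in replicate 1, the TPM in replicate 2 was a median of 3.24 times that in replicate 1, with quartiles of 2.72 and 3.81, and 29 ratios lay between 2 and 6. The exceptions were Myh2 at 0.766, Jph1 at 1.61 and Actn2, the Z-disc actinin, at 6.41. Tnnt1, Tnni1 and Tnnc1 had fewer counts than that in replicate 1 and are not in this ratio. Over all 35 genes the Pearson correlation of log10(TPM + 0.1) was 0.975 between these libraries, a description across genes that share a library and are not independent. For the same 32 genes, the ratio of IAT WT replicate 2 to BAT WT replicate 1 had a median of 1.96 and quartiles of 1.33 and 2.54, and ran from 0.195 for Myh2 to 6.04 for Mybpc2. The correlation over all 35 genes was 0.760. With all 35 genes the lowest ratio was 0.0024 for Tnni1, which had 1 count in IAT WT replicate 2 and 241 in BAT WT replicate 1. Mb, the oxygen store of oxidative fibres, was among the 6 of the 32 genes with a ratio under 1, at 0.312. BAT KO replicates 2 and 3, which carried traces, correlated at 0.980 with each other and at 0.935 and 0.926 with BAT WT replicate 3. They correlated at 0.912 and 0.893 with IAT WT replicate 1 and at 0.878 and 0.862 with IAT WT replicate 2. The values with BAT WT replicate 1 were 0.829 and 0.843.

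**Figure D3:**
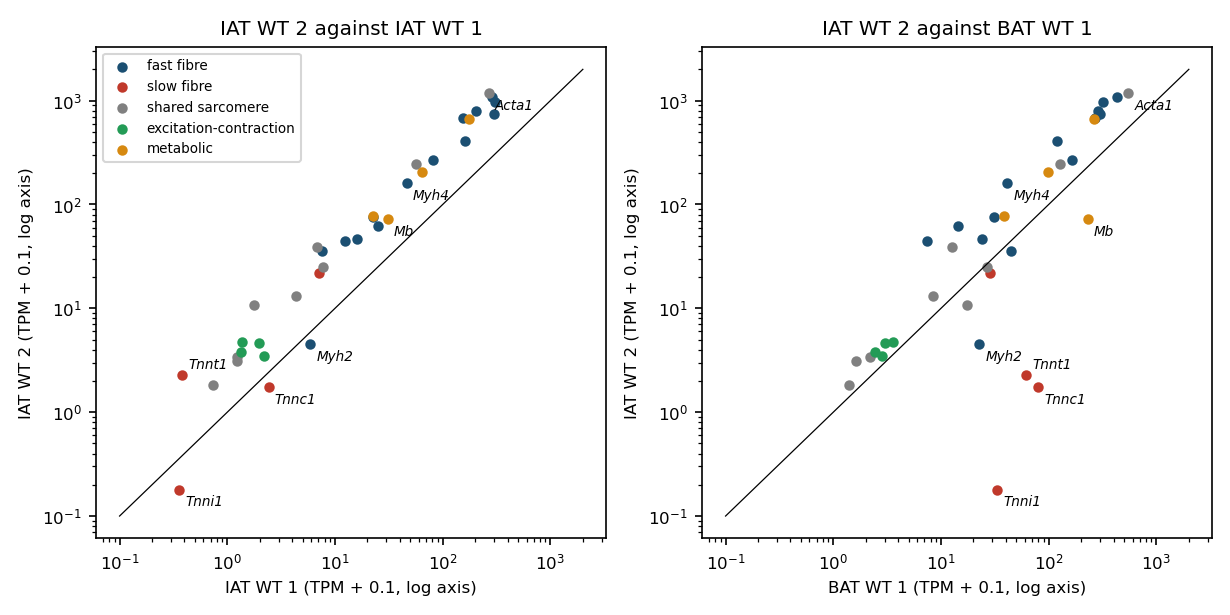
Each point is 1 of the 35 genes, coloured by role, with its TPM + 0.1 in IAT WT 2 on the vertical log axis against IAT WT 1 (left) or BAT WT 1 (right), and the line marks equal levels. On the left most points run parallel to the line at a median ratio of 3.24. On the right Tnnt1, Tnnc1, Tnni1, Myh2 and Mb fall well below the line.

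A minority of the genes kept a level in every fat library where Ckm was near 0. In the 6 libraries with Ckm under 0.2 TPM (IAT WT replicate 3, the 3 IAT KO libraries, BAT WT replicate 2 and BAT KO replicate 1), 6 of the 35 genes were at 1 TPM or more in all 6 libraries, 19 in none and 10 in some. The 6 were Myl1, Tpm2, Eno3, Mb, Mylpf and Tnnc1. In these libraries Tnnc1 rested on 5 to 15 counts and Mylpf on 9 to 52 counts. Mylpf and Tnnc1 were also found in liver, at 0.75 to 3.86 and 2.48 to 8.05 TPM, where Myl1 and Mb were near 0.

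Myl1, the essential light chain of fast myosin, was the most abundant of them. It was at 297, 739 and 71.1 TPM in IAT WT and at 43.0, 94.3 and 68.3 TPM in IAT KO. In BAT it was at 299, 144 and 149.9 TPM in WT and at 148, 150.6 and 159 TPM in KO. Without BAT WT replicate 1 the remaining 5 BAT libraries lay within 144 to 159 TPM, a narrow band beside that of the other fast genes. Brain held 0.66 to 2.53 TPM of Myl1 and liver at most 0.20 TPM. No other annotated gene overlaps Myl1 (chr1:66924295-66947932).

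Eno3, the muscle form of the glycolytic enzyme enolase, was at 63.5, 206 and 14.1 TPM in IAT WT and at 40.4, 17.4 and 29.8 TPM in IAT KO. In BAT, Eno3 was at 98.6, 19.7 and 19.6 TPM in WT and at 12.6, 18.4 and 14.0 TPM in KO, with every KO library below every WT library. Brain held 12.0 to 22.3 TPM and liver 4.17 to 5.61 TPM, so a basal level was not particular to fat. Tpm2, a tropomyosin that smooth muscle also uses, was at 12.2 to 24.6 TPM in the 9 fat libraries other than IAT WT replicates 1 and 2 and BAT WT replicate 1, where it was at 56.3, 244 and 126 TPM. The smooth muscle list summed to 159.7 to 215 TPM in IAT and 50.3 to 88.4 TPM in BAT, and its part in the Tpm2 level was not tested.

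Mb differed between the depots in its basal level. It was at 30.9, 71.6 and 2.95 TPM in IAT WT and at 1.21, 2.92 and 1.93 TPM in IAT KO. In BAT it was at 229.7, 12.9 and 7.95 TPM in WT and at 9.47, 10.7 and 15.9 TPM in KO. Even BAT WT replicate 2 and BAT KO replicate 1, with Ckm at 0.09 and 0.10 TPM, held 12.9 and 9.47 TPM of Mb, above the 1.21 to 2.95 TPM of the 4 IAT libraries without Ckm counts. Pygm, muscle glycogen phosphorylase, showed the same order at a lower level, at 3.12 and 4.3 TPM against 0.60 to 2.39 TPM. Mb overlaps the annotated genes Gm49540 and Apol6 on the other strand. Other genes of the set do so too, among them Tnnc1 with Nisch and Myom1 with Myl12a. As for Acta1, reads of both could not be separated without strand information.

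Mylpf, the regulatory light chain of fast myosin, and Tnni2 were raised in IAT KO replicate 1 relative to replicate 2, at 9.39 against 1.54 TPM and at 4.67 against 1.05 TPM, with replicate 3 between them at 6.41 and 1.98 TPM. They are examples: Eno3, at 40.4 against 17.4 TPM, and Ttn, at 0.14 against 0.01 TPM, differed in the same direction. The set did not move as a whole, since Acta1 was at 0.99 against 46.0 TPM and Myl1 at 43.0 against 94.3 TPM. Lymphocyte transcripts differed between replicates 1 and 2 in the direction of Mylpf and Tnni2. The 11 lymphocyte genes summed to 1938, 3.33 and 961 TPM in IAT KO replicates 1, 2 and 3. Cd79a, part of the B cell receptor, was at 546, 0.13 and 277 TPM. Because replicate 3 lay close to the mean of replicates 1 and 2, its place between them carries no further information. The part of lymphocyte transcripts in the levels of Mylpf and Tnni2 was not tested.

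**Figure D4:**
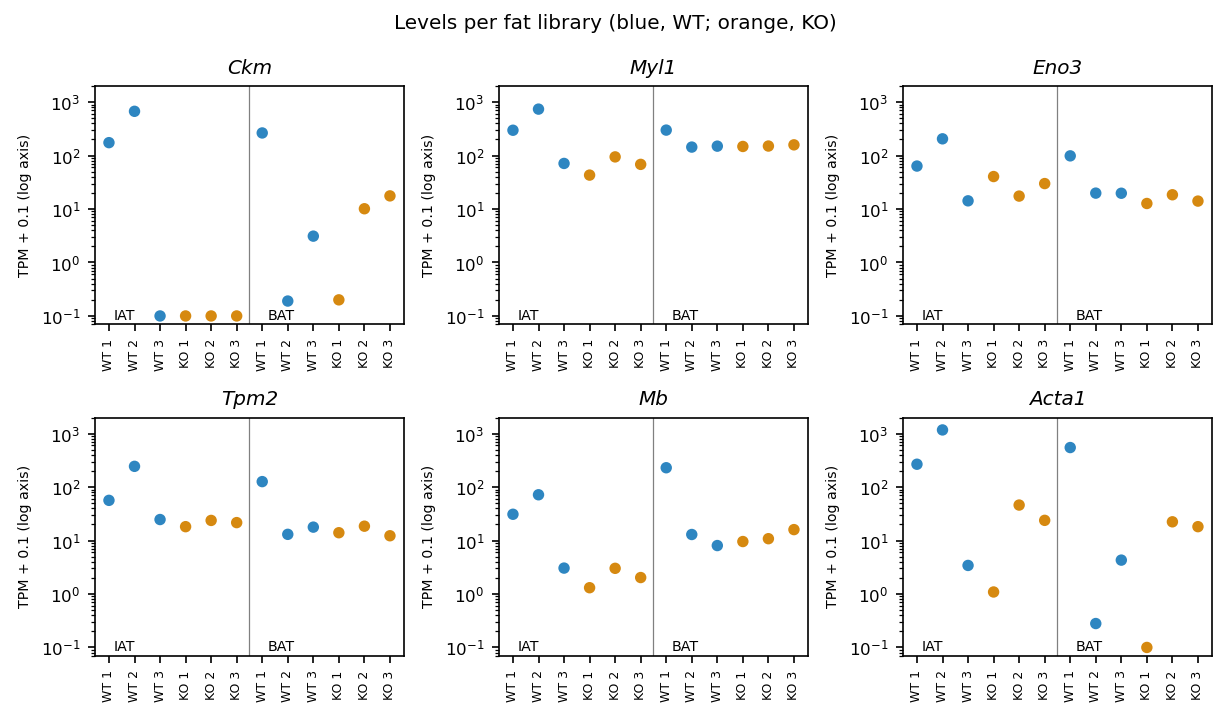
TPM + 0.1 on a log axis for 6 genes in the 12 fat libraries, WT in blue and KO in orange, with a line between IAT and BAT. Ckm falls to 0 in 4 IAT libraries, while Myl1 stays at or above 43.0 TPM, Tpm2 and Eno3 at or above 12.2 TPM and Mb at or above 7.95 TPM in BAT; Acta1 shows a separate high value in IAT KO 2.

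The first comparison was KO against WT within IAT. All estimates for muscle genes were below 0 there, but none passed the test, and the direction rested on WT replicates 1 and 2. Of the 35 genes, 25 passed the filter on low counts and were tested, and 0 were called by edgeR's quasi-likelihood test at an adjusted p under 0.05. Over all 14097 genes tested, 0% were called. The filter needed counts in enough libraries, so genes such as Ckm and Myot, at 0 in 4 of the 6 IAT libraries, were not tested. The median log2 fold change was -4.28 over the 25 genes against 0.02 over all genes tested, and 18 had an unadjusted p under 0.05, against 15.8% of all genes. Genes such as Trdn passed the filter through the WT libraries in which they were high, so these values do not test the set against all genes. Limma-voom called 0 as well (0.0497% of all genes), whereas DESeq2 called 16, all lower in KO, where it called 7.00% of all genes.

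Tnnt3 averaged 457 TPM in IAT WT (SD 561, n = 3) and 1.06 TPM in KO (SD 0.555, n = 3), and its log2 fold change was -8.63 (SE 2.15, edgeR adjusted p = 0.225). For Trdn the value was -5.86 (SE 1.25, edgeR adjusted p = 0.214), the lowest adjusted p of the set. Trdn passed the filter through WT, with 67, 228 and 17 counts there against 0, 3 and 2 in KO, so its rank was favoured beforehand. Myl1 averaged 369 TPM in WT (SD 340, n = 3) and 68.5 TPM in KO (SD 25.7, n = 3), with a log2 fold change of -2.27 (SE 0.76, edgeR adjusted p = 0.270). Tnnt1, the slow gene, was at -0.11 (SE 0.73, edgeR adjusted p = 0.945). Without KO replicate 3, which lay close to the mean of the other 2, the log2 fold changes were -8.57 for Tnnt3, -5.97 for Trdn and -2.23 for Myl1. The edgeR adjusted p was then 0.669 for each. Tnnt3, Trdn and Myl1 were each high in WT replicates 1 and 2 and low in WT replicate 3. All 3 KO libraries lay below all 3 WT libraries for 5 of the 25 genes (Jph1, Ryr1, Tnnt3, Trdn and Actn3), against 9.65% of all genes tested. For Tnnt3, WT replicate 3 and KO replicate 1 both had 16 counts. For Actn3, WT replicate 3 had 18 counts and KO replicate 2 had 17. The separation of these genes therefore rested on few counts and on the scaling of the libraries.

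Without IAT WT replicates 1 and 2, 26 genes were tested against the lone WT replicate 3, whose variability was taken to be that of the KO group. The estimates no longer pointed one way: 15 of 26 were above 0 and the median was 0.69. EdgeR called 0 of them and 0% of all genes, and 2 of the 26 had an unadjusted p below 0.05, against 7.32% of all genes. Without IAT KO replicate 3, 34 genes were tested and edgeR called 0, with 0% of all genes called. Of the 34, 20 had an unadjusted p below 0.05, against 7.17% of all genes. With fewer KO libraries the filter let in genes such as Ckm and Myot, which in IAT had counts only in WT replicates 1 and 2. They passed through the libraries in which they were high, so this count does not test the set against all genes. The contrast of the genotypes in IAT and the presence of muscle transcripts in WT replicates 1 and 2 cannot be told apart for these genes.

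In BAT the KO estimates were also below 0 for every tested muscle gene, and there 1 library carried the direction. Again 25 genes were tested and edgeR called 0, where 0.540% of all 12588 genes tested were called. The median log2 fold change was -2.79, and 2 of the 25 genes had an unadjusted p below 0.05, against 18.5% of all genes. DESeq2 called 0 (3.71% of all genes) and limma-voom 0 (0.437%). Tnnt3 averaged 144 TPM in WT (SD 244, n = 3) and 14.6 TPM in KO (SD 12.5, n = 3), with a log2 fold change of -3.16 (SE 1.83, edgeR adjusted p = 0.383). Eno3 was at -1.14 (SE 0.43, edgeR adjusted p = 0.228) and was the 1 gene of 25 with every KO library below every WT library, against 11.3% of all genes tested. Myl1 averaged 198 TPM in WT (SD 88.0, n = 3) and 152 TPM in KO (SD 5.54, n = 3), with a log2 fold change of -0.20 (SE 0.25, edgeR adjusted p = 0.686).

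Without BAT WT replicate 1 the direction turned. Of 24 genes tested, 21 had estimates above 0, and the median log2 fold change was 1.77. EdgeR called 0 of the 24, where it called 0.291% of all genes, and 4 had an unadjusted p below 0.05, against 14.9% of all genes. Tnnt3 was then at 2.41, Mb at 0.34 and Myl1 at 0.19, in place of -3.16, -2.68 and -0.20. Eno3 remained below 0, at -0.38.

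**Figure D5:**
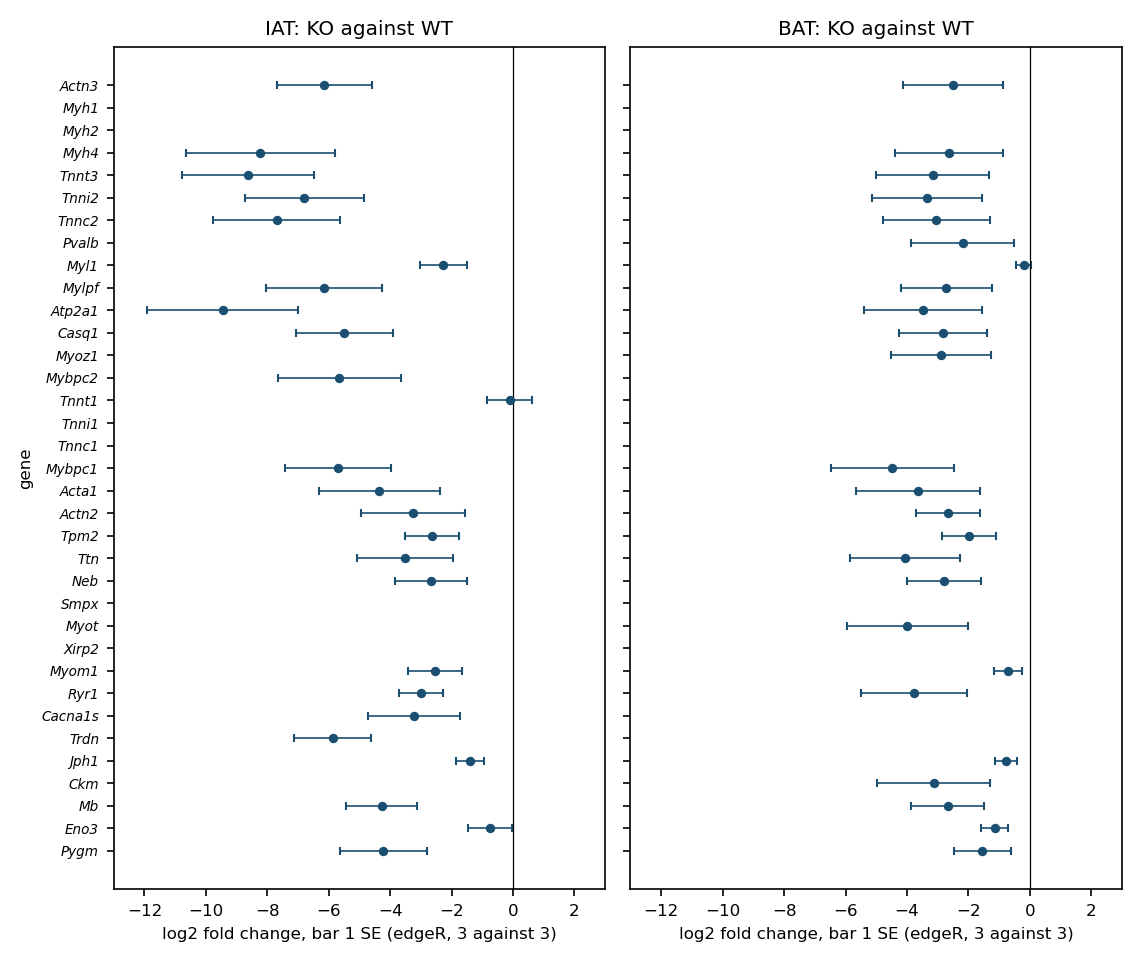
Log2 fold change of KO against WT for each gene tested in IAT (left) and BAT (right), with bars of 1 SE from edgeR on 3 against 3 libraries, and genes without a point not tested. All points lie below 0, none was called, and Myl1, Jph1, Myom1 and Eno3 in BAT have short bars.

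The depots were compared over all 12 libraries, as BAT minus IAT with both genotypes weighted equally. Of 34 muscle genes tested, edgeR called 1, in a comparison where 68.6% of 14271 genes were called. That gene was Mb, with a log2 difference of 2.47 towards BAT (SE 0.94, adjusted p = 0.0352 in edgeR, range over the alternatives 0.00128 to 0.215). DESeq2 called 3, Mb with Ckm and Myot, where it called 69.8% of all genes. Tnnc1 was at 2.11 (SE 0.89, edgeR adjusted p = 0.0552) and Myl1 at 0.71 (SE 0.43, edgeR adjusted p = 0.158). The median over the 34 genes was 0.80, and 10 estimates were below 0. On log2(TPM + 1), 20 of 29 were below 0, and the median of all genes moved from -0.09 to -0.50.

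The calls of this comparison changed with the libraries included. Without IAT KO replicate 3, edgeR called 0 of 34, where 63.8% of all genes were called, and Mb was at 2.46 (adjusted p = 0.0693 in edgeR). Mb was not called in 10 of its alternatives and was called in 11. Without BAT WT replicate 1, edgeR called 6 genes, all lower in BAT (Ryr1, Tnnt1, Ttn, Smpx, Cacna1s and Actn3), where 65.0% of all genes were called, and Mb was at 0.96 and was not called. This fit dropped the muscle-rich BAT library and kept the muscle-rich IAT WT replicates 1 and 2, which favoured lower estimates in BAT. Its calls are therefore not a test of the depots. Without IAT WT replicates 1 and 2 and BAT WT replicate 1 together, edgeR called 10 of 32 genes, where 57.2% of all genes were called. Of these, 8 were higher in BAT (Mb, Pygm, Myom1, Myl1, Actn2, Jph1, Pvalb and Ckm) and 2 lower (Tnnt1 and Ryr1). These libraries were left out because muscle genes were high in them, and IAT WT then holds 1 library, assumed to vary like the other groups, so the calls are a description and not a test of the depots. The log2 differences were 2.84 for Mb, 2.37 for Pygm, 1.80 for Myom1, an M-band protein, 1.57 for Myl1 and -3.12 for slow Tnnt1. Pvalb and Ckm rested on the traces in BAT KO replicates 2 and 3 and BAT WT replicate 3.

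Whether the genotype effect differed between the depots was tested as an interaction. EdgeR called 0 of 34 genes and 0% of 14271, and 3 of the 34 had an unadjusted p below 0.05, against 12.0% of all genes. Without IAT KO replicate 3 it also called 0 of 34, and 0% of all genes, with 2 muscle genes at an unadjusted p below 0.05 against 7.63% of all genes. Limma-voom called 0 (0% of all genes), and DESeq2 called 2, Ckm and Myot, against 1.24% of all genes. For Tnnt1 the difference, the BAT change minus the IAT change, was -6.82 (SE 2.88, edgeR adjusted p = 0.396), and for Tnnt3 it was 5.44 (SE 3.22, edgeR adjusted p = 0.490).

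A wider list of muscle genes was read beside the set. Of 31 further skeletal muscle genes, 31 were at 1 TPM or more in IAT WT replicate 2, 25 in IAT WT replicate 1 and 30 in BAT WT replicate 1, and 9 to 15 in the other 9 fat libraries. EdgeR called 0 of 18 tested in IAT (0% of all genes), with a median log2 fold change of -1.09. In BAT it called 0 of 16 (0.540% of all genes), with a median of -1.08. Between depots it called 5 of 30, 4 higher and 1 lower in BAT, where 68.6% of all genes were called. Not all of the list followed the muscle-rich libraries: Phka1, a phosphorylase kinase subunit, was at 5.73 to 9.03 TPM and Smtnl2 at 5.25 to 16.4 TPM in all 12 fat libraries. Tcap, a titin cap protein of the Z-disc, was at 42.7, 184 and 0.13 TPM in IAT WT and at 160.0, 0 and 0.86 TPM in BAT WT. Cox8b and Cox7a1, subunits of cytochrome oxidase found in muscle, heart and brown fat, were at 5513 to 10766 TPM in every BAT library. Among the BAT libraries both were lowest in WT replicate 1. In IAT, Cox7a1 was highest in WT replicates 1 and 2, at 86.3 and 133 TPM, against 25.9 to 44.9 TPM in the rest. Cox8b was at 574 and 419 TPM in these libraries and at 557 TPM in IAT KO replicate 2. Ckmt2, the mitochondrial creatine kinase of muscle, was at 5.98, 18.3 and 0 TPM in IAT WT, at 42.4, 0 and 0 TPM in BAT WT, and at no more than 0.69 TPM in the KO libraries of either depot.

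The sequences upstream of muscle genes were read where members moved together or apart. Muscle elements were searched on both strands in the 250 bases before each RefSeq transcript start (GRCm38.p6), which were found for 27 of the 35 genes at 31 starts. The E-box CAGCTG, bound by the MyoD family, was in 15 of 31 starts (48.4%) against 13.0% of 32851 starts of all genes, and it is 1 form of the general E-box CANNTG, which was in 83.9% against 66.2%. The MEF2 box was in 16.1% against 2.92%, the CArG box of serum response factor in 9.68% against 1.47%, and the MCAT element CATTCC in 25.8% against 12.6%. The windows printed here, 5′ to 3′ and ending at the base before the transcript start, are those of Myh4, of fast fibres, Acta1, which both fibre types use, Tnnc1, of slow fibres, and Myl1, which kept a level in all fat libraries. Capitals mark matches to this E-box, the MCAT element on either strand, the MEF2 box and the CArG box.
Myh4 (chr11:67237562-67237811, plus strand): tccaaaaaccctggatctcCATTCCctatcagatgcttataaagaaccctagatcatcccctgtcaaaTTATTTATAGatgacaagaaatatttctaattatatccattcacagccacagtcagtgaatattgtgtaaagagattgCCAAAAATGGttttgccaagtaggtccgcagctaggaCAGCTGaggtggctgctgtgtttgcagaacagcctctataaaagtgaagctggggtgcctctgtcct
Acta1 (chr8:123894776-123895025, minus strand): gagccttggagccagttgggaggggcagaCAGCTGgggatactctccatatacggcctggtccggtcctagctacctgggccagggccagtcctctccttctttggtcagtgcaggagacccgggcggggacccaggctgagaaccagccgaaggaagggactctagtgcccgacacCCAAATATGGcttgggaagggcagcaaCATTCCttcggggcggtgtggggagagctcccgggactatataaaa
Tnnc1 (chr14:31208062-31208311, plus strand): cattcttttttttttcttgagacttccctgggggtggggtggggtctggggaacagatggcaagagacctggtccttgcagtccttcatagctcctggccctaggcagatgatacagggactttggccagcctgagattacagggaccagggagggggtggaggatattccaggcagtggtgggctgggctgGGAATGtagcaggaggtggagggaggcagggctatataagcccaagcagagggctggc
Myl1 (chr1:66945057-66945306, minus strand): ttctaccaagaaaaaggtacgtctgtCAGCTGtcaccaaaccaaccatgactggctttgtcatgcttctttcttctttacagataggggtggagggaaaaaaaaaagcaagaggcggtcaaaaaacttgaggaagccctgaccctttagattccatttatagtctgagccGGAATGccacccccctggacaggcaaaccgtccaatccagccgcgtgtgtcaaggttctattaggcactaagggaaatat

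In these windows Myh4 held all 4 elements and Acta1 held the E-box CAGCTG, the MCAT element and a CArG box. Tnnc1 held the MCAT element and none of the others, and Myl1 held the E-box and the MCAT element. The printed windows do not stand for fast and slow genes at large. Of the slow genes, Tnni1 and Mybpc1 held the E-box CAGCTG and Tnnt1 did not. Among the fast genes, Atp2a1, Casq1 and Mylpf held it, while Myh1, Myh2, Tnnc2 and Mybpc2 did not. The Myl1 window belongs to a start inside the annotated gene, which reaches to position 66947932. A match is a description of letters in the window and was not linked to the levels above.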

How the data were processed

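Transcripts of 24 libraries were deposited as 1 table of 19015 genes. The expected counts are RSEM estimates of reads per gene made by the authors, not normalised, per the file headers and the submitters' processing notes, which name RSEM 1.3.1, the aligner Bowtie2 2.3.4.3, the build GRCm38.p6 and DESeq2 1.4.5. The authors deposited TPM values as well, scaled within a library, as the file headers name them. Annotation and strand handling: not given in the sources used here. A further 48 per-sample columns were not used.

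Levels were described in TPM. Expected counts were rounded and tested with edgeR 4.0.16 (R 4.3.3, TMM factors, filterByExpr, quasi-likelihood F-test), over all genes passing the filter, with Benjamini-Hochberg adjustment and calls under 0.05. Each depot was fitted on its 6 libraries, and depots and the interaction on the 12 fat libraries. Standard errors were taken from the F statistic. Alternatives were RLE factors, no filter, at least 1 CPM in 3 libraries, limma-voom (limma 3.58.1), DESeq2 1.42.0, a replicate block, limma-trend on log2 TPM with 1 or 0.1 added, leaving out each library, and leaving out the WT libraries rich in muscle transcripts. The fits were tested on simulated data. Any of the 35 genes could be named. From the other lists, called genes, the most abundant genes and genes given as near 0 could be named. The genes and lists were chosen with earlier results of these data known.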

Additional observations from a re-analysis of the deposited data

How the results depend on the processing

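The count of muscle genes called for KO against WT stayed at 0 under every alternative in BAT, and in IAT under all but DESeq2, which called 16. For BAT against IAT the main count of 1 became 3 with DESeq2, 0 with limma-voom, 0 with limma-trend on log2(TPM + 1), 0 on log2(TPM + 0.1) and 10 without the 3 WT libraries rich in muscle transcripts. It ranged from 0 to 6 when each library was left out in turn. Mb itself was not called with limma-voom or on either TPM scale, nor without IAT WT replicate 1, IAT KO replicate 1 or 3, BAT WT replicate 1 or any 1 of the BAT KO libraries. The interaction count of 0 became 2 with DESeq2. The cause of these differences between tools was not tested. In BAT, the log2 fold change of Tnnt3 was -3.16, turned to 0.22 with the replicate block and ranged from -3.75 to 2.41 when each library was left out. Over the same leave-one-out fits Mb ranged from -3.22 to 0.34 and Myl1 from -0.36 to 0.19. The highest value in each case was that without BAT WT replicate 1. The fast share of troponin became 99.5% in IAT WT replicate 2, 91.1% in BAT WT replicate 1 and 99.0% in BAT KO replicate 3 when all 14 fast and 4 slow genes were summed, a sum in which Myl1 counts as fast. It was 83.8% in BAT WT replicate 1 on the CPM scale. With the replicate number as a block, edgeR called 0 muscle genes in IAT, 0 in BAT, 1 between depots and 0 in the interaction. Over all genes it called, in the same order, 0 of 14097, 1 of 12588, 9239 of 14271 and 1 of 14271. Same-numbered libraries correlated in their deviations at -0.26, -0.18 and 0.05 in IAT, -0.16, -0.18 and -0.17 in BAT, -0.10, -0.36 and 0.28 between WT depots and -0.01, 0.03 and 0.03 between KO depots, so not every pair was above 0.1 and the numbers were not taken to pair the samples. Slow troponins rested on 14 and 29 counts in IAT WT replicates 1 and 2, which limits the precision of their level there.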
